A study of Mus musculus with 10 samples.

Results

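The loci of Sin3a, Sin3b, Hdac1 and Hdac2, which encode the core of the Sin3 co-repressor complex, were examined for occupancy by Sin3a itself and by FLAG-tagged Nanog in mouse pre-iPSCs. Peaks were taken as belonging to a locus when they shared at least 1 base with a given window of mouse build mm9: chromosome 9 from 56890000 to 57000000 for Sin3a, chromosome 8 from 75220000 to 75310000 for Sin3b, chromosome 4 from 129150000 to 129250000 for Hdac1, and chromosome 10 from 36660000 to 36750000 for Hdac2. These windows held 53 of the 110170 peaks in the 4 deposited lists. Merging peaks that shared a base gave 17 sites, numbered here from low to high coordinate within each window.

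Pre-iPSCs are partly reprogrammed cells, made in this study from female neural stem cells of strain 129/MF1 and carrying an Oct4 reporter (Oct4-GFP-IRES-puro). All of the lines used were stable drug-selected lines made with PiggyBac transposons, in which the CAG promoter drives the transgene, and the labels do not say whether a line is 1 clone. The 3 lines carried Sin3a with an empty vector (Sin3a line), Nanog (FLAG) with an empty vector (Nanog line), or both genes, Nanog (FLAG) and Sin3a (called the double line here). ChIP-seq for Sin3a was run in the Sin3a and double lines and ChIP-seq for FLAG in the Nanog and double lines, with 2 replicates in each of these 4 groups. Each group has 1 peak list, so no value below has a replicate spread, no difference was tested, and all comparisons are descriptions of these lists. The lists held 17168 Sin3a peaks in the Sin3a line, 18231 in the double line, and 38485 FLAG peaks in the Nanog line versus 36286 in the double line. Input and IgG were also sequenced and are not analysed here.

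Sin3a and Sin3b are related scaffold proteins. They do not read DNA sequence themselves but are brought to chromatin by transcription factors, which bind their paired amphipathic helix domains. Hdac1 and Hdac2 are closely related class I histone deacetylases, the catalytic subunits held by the scaffold, and both also serve in other co-repressor complexes such as NuRD and CoREST. Nanog is a homeodomain factor of the pluripotency network.

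The files name no gene, and the only gene table given is not of mm9, so no peak was placed at a promoter, exon or intron. Each window is wider than its gene. By the lengths in RefSeq (GRCm38.p6), Sin3a (56.4 kb) could fill at most 51.3% of its window, Sin3b (34.9 kb) 38.8%, Hdac2 (27.6 kb) 30.7% and Hdac1 (26.5 kb) 26.5%. Close neighbours share these loci. In that build Marcksl1 lies 123 bp from Hdac1 and Lck 5.70 kb on its other side, Man2c1 lies 2.31 kb from Sin3a, and F2rl3 3.46 kb from Sin3b. The nearest protein-coding genes to Hdac2, Marcks and Hs3st5, are 131 and 139.9 kb away. A peak in a window is therefore not assigned to the gene that names it.

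Sequences from before the scaffold genes are shown because these letters are what Nanog, or a factor that recruits Sin3a, could read there. Of the 250 bases before each annotated start in RefSeq (GRCm38.p6), those outside the gene model are printed, all 250 for Sin3b and 201 for Sin3a start 1, 5′ to 3′ on the plus strand, with every ATTA (homeodomain core), CACGTG (E box, the site of the Max and Mxd proteins that recruit Sin3) and GGGCGG (GC box) in capitals on either strand. Sin3a has 2 annotated starts 4.34 kb apart, each with a long non-coding RNA that starts on the opposite strand, Gm10658 at 74 bp from start 1 and 2700012I20Rik at 327 bp from start 2.
Sin3a start 1: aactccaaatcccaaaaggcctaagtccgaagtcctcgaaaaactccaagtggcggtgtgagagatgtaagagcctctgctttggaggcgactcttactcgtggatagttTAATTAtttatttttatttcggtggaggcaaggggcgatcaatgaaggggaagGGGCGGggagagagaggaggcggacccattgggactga
Sin3b start 1: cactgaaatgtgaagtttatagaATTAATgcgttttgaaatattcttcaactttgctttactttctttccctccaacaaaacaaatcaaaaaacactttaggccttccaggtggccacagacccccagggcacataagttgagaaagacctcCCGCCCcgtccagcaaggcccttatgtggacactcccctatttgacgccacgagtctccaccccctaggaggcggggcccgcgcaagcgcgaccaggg

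Sin3a start 2 lies inside the gene model, with 0 of its 250 bases outside it, and for Hdac2 3 of 250 are outside, so these are not printed and may include transcribed sequence. In the 250 bases before the start, Sin3a start 1 and Sin3b each held 2 overlapping ATTA matches and 1 GC box, Sin3a start 2 held 1 ATTA match and 3 GC boxes, and Hdac2 held no ATTA match and 1 GC box. No E box was found in any of the 4. Of 32851 promoters in the table, 54.9% held ATTA, 32.7% the GC box and 6.02% the E box. CG dinucleotides numbered 12 and 19 at the Sin3a starts, 10 at Sin3b and 27 at Hdac2, against a median of 6. A match is a description of letters, and which peak, if any, covers these sequences was not determined.

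Every window held peaks of both proteins in each line assayed. The Sin3a window carried 5 Sin3a peaks in each Sin3a list, and 8 FLAG peaks in the Nanog line versus 9 in the double line. The Hdac1 window carried 4 Sin3a peaks in each Sin3a list, and 6 FLAG peaks in the Nanog line versus 4 in the double line. The Sin3b and Hdac2 windows carried 1 peak of each list, at 1 site each. When the genome was cut into tiles of the length of the Sin3a window, at least as many peaks were found in 3.94% of tiles for Sin3a in the Sin3a line, 4.47% for Sin3a in the double line, and 5.22% for FLAG in the Nanog line versus 3.13% for FLAG in the double line. For the Hdac1 window these shares were 5.29%, 5.76%, 8.03% and 13.6%. A single peak, as at Sin3b and Hdac2, was found in 24.7% and 24.6% of tiles for Sin3a and in 38.9% and 41.2% for FLAG. The tiles include gene-poor sequence, whereas the windows were chosen around genes.

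**Figure D1:**
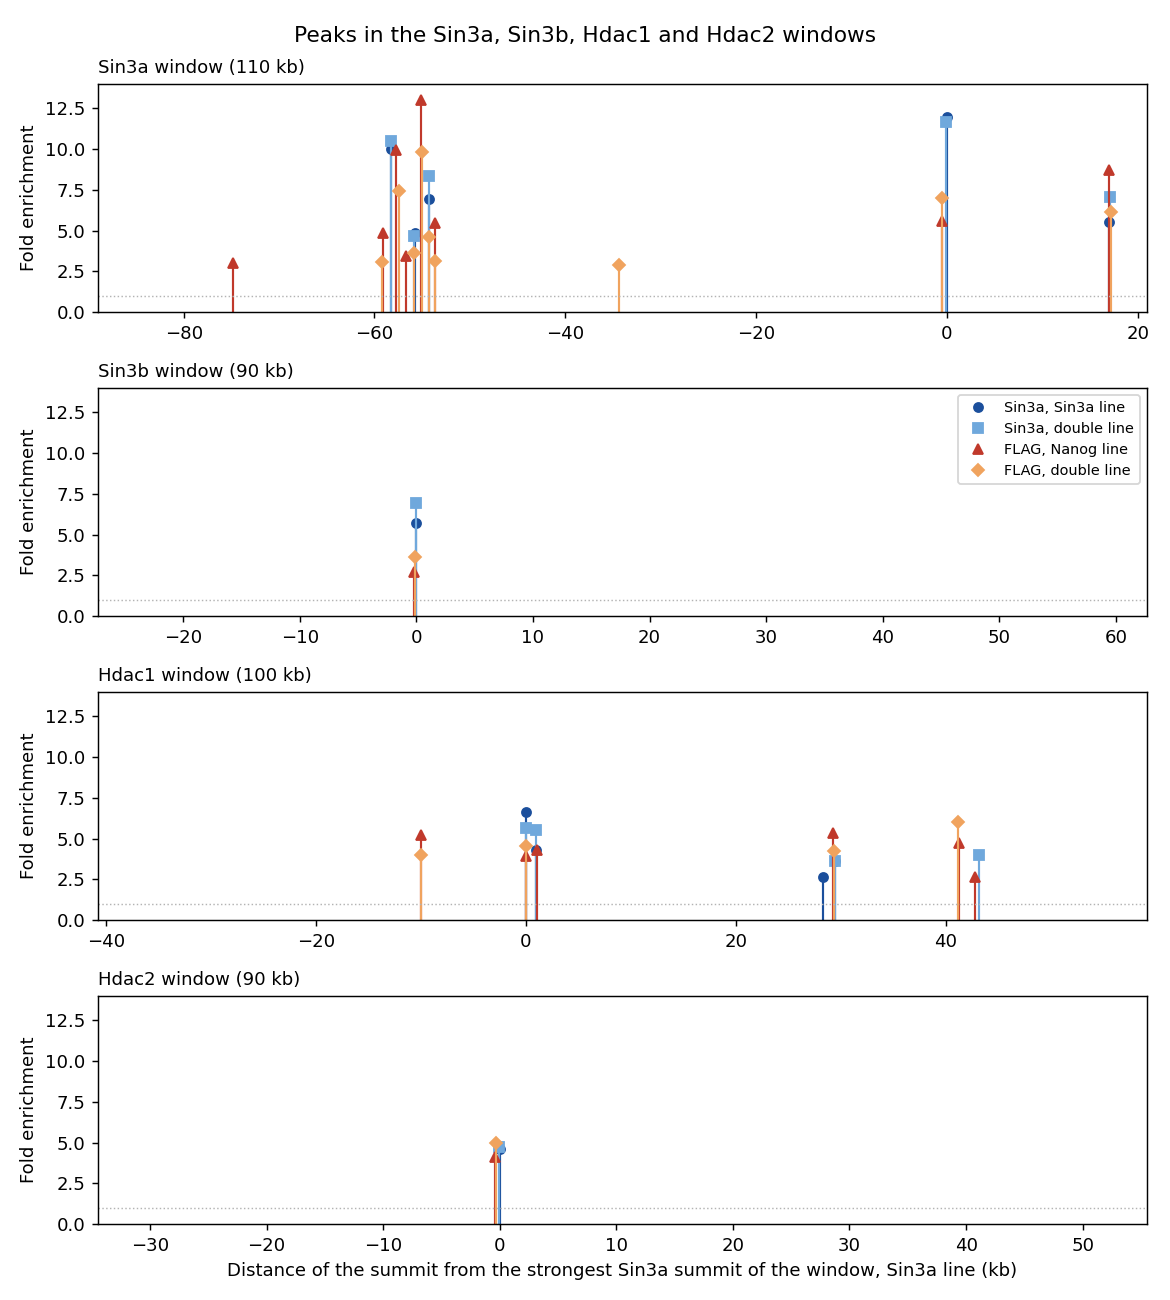
Fold enrichment at the summit (vertical axis) of all 53 peaks against their distance in kb from the strongest Sin3a summit of the window in the Sin3a line (horizontal axis), with 1 panel per window and 1 symbol per list; the dotted line marks a fold of 1. The Sin3a and Hdac1 windows hold several sites each, and the Sin3b and Hdac2 windows 1 site each.

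Of the 17 sites, 9 (52.9%) had a peak of every list, against 25.7% of the 45707 merged sites of the whole series. These 9 were Sin3a sites 2, 3, 4, 6 and 7, Sin3b site 1, Hdac1 sites 2 and 5, and Hdac2 site 1. Sin3a sites 2 to 4 lie within 5.98 kb and are counted separately here. The windows were chosen around genes, whereas the share of the series covers all merged sites. Both antibodies were seen at 10 sites (37.2% in the whole series), FLAG peaks without Sin3a at 5 (57.5%) and Sin3a peaks without FLAG at 2 (5.27%), both in the Hdac1 window. The 5 sites seen in 1 list alone had folds of 2.62 to 3.99 and widths of 184 to 302 bp, and 4 of them ranked in the weakest 10% of their list.

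Peaks of the same antibody recurred between lines at shares near those of the whole lists. In the Sin3a line's list, 10 of 11 Sin3a peaks overlapped one of the double line (84.2% over the whole list), and 10 of 11 did in the other direction (80.4%). In the Nanog line's list, 12 of 16 FLAG peaks overlapped one of the double line (74.2%), and 13 of 15 did in the other direction (79.7%). For the different antibodies, 9 of 11 Sin3a peaks of the double line overlapped a FLAG peak of that line (80.3%), and 10 of 11 in the Sin3a line lay at one from the Nanog line (88.5%). In reverse, 12 of 15 FLAG peaks of the double line lay at a Sin3a peak (42.2%), as did 12 of 16 of the Nanog line (41.8%). Of these last FLAG peaks, 6 in the double line and 5 in the Nanog line lay at Sin3a sites 2 to 4, where peaks of 1 site are counted separately.

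The Sin3a window was the most densely occupied, and 17 of its 27 peaks fell in a stretch of 5.98 kb at 56919512-56925494. The stretch comprised sites 2, 3 and 4, separated by 304 and 135 bp, with 3 peaks in each Sin3a list, and 5 FLAG peaks in the Nanog line versus 6 in the double line. Peaks of at least 1 list covered 92.7% of its bases. Among the 11761 sites of every list in the series, 5.14% lay in a group of 3 or more within such a span. This feature was singled out after its values were seen.

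At Sin3a site 2 (chromosome 9, 56919512-56922400), the 2889 bp covered by the site placed it among the widest, since 0.663% of sites of every list were at least as wide. The Sin3a fold was 9.99 in the Sin3a line and 10.5 in the double line, in the strongest 5.22% and 3.10% of the respective lists by −log10 q. The strongest FLAG peak here reached a fold of 9.94 in the Nanog line versus 7.41 in the double line, in the strongest 9.05% and 18.99%. The Sin3a summits carried 90 ChIP fragments (exact 95% Poisson interval 72.4 to 111) and 81 (64.3 to 101) in the same order of lines, and the FLAG summits 64 (49.3 to 81.7) and 57 (43.2 to 73.9). Fragment numbers are not scaled for depth, which differed between lists, and show the precision of a value within its list, not differences between lists. Sin3a formed 1 broad peak here, 2442 and 2061 bp wide, whereas FLAG was split into 3 peaks in the Nanog line versus 2 in the double line. The Sin3a summits of the lines lay 9 bp apart, at 56920765 and 56920756, and the nearest FLAG summit was 499 bp away in the Nanog line versus 796 bp away in the double line, counted from the Sin3a line's summit.

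Site 3 (56922705-56924145) was the strongest FLAG site of the 4 windows in both FLAG lists. The FLAG fold reached 13.0 in the Nanog line, in the strongest 3.47% of its list, and 9.82 in the double line, in the strongest 8.24%. Its summits carried 84 fragments (67.0 to 104) and 76 (59.9 to 95.1). The Sin3a fold at the same site was 4.86 in the Sin3a line and 4.65 in the double line, the lowest of the 5 Sin3a-bound sites of the window in each list, although these summits carried 75 (59.0 to 94.0) and 59 (44.9 to 76.1) fragments. The expected background at the Sin3a summits was 10.0 and 9.0 control tags, against the lowest values of 5.41 and 5.05 in these lists, which 8 and 9 of the 11 Sin3a summits of the windows had. By fold these peaks ranked in the top 46.3% and 49.4% of their lists, and by −log10 q in the top 28.3% and 31.3%.

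Summits of the antibodies were separated at site 3. The strongest FLAG summits lay 30 bp apart between lines, and the Sin3a summits 33 bp apart, but FLAG and Sin3a summits were 729 bp apart across the single-transgene lines and 792 bp apart in the double line. In the double line a weaker FLAG peak, with a fold of 3.60, had its summit 33 bp from that line's Sin3a summit. No separate FLAG peak was called there in the Nanog line.

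At site 4 (56924281-56925494), the Sin3a fold was 6.93 in the Sin3a line and 8.33 in the double line, and the strongest FLAG fold 5.47 in the Nanog line versus 4.62 in the double line. By −log10 q these were in the top 22.2% and 9.63% of the Sin3a lists and 32.9% and 55.0% of the FLAG lists. The summits carried 62 (47.5 to 79.5) and 64 (49.3 to 81.7) Sin3a fragments and 43 (31.1 to 57.9) and 35 (24.4 to 48.7) FLAG fragments. The Sin3a summits were 12 bp apart. FLAG in the double line had its stronger peak 34 bp from the Sin3a summit of that line, and a weaker one, of fold 3.14, 18 bp from the FLAG summit of the Nanog line, which lay 593 bp from the Sin3a summit of the Sin3a line. The order of strength of these FLAG positions could not be compared between lines, since the Nanog line has 1 peak over both.

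**Figure D2:**
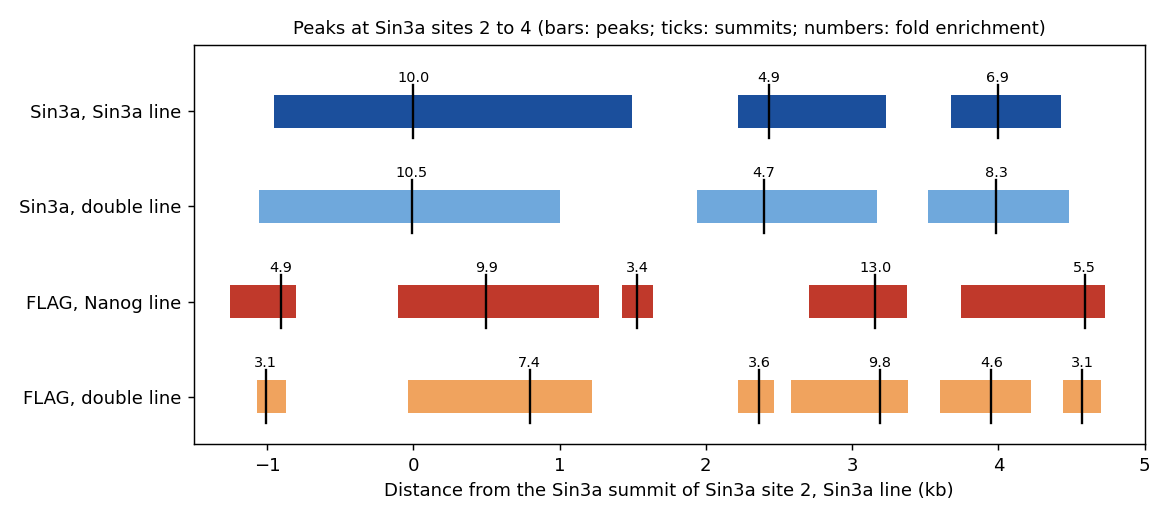
Peaks at Sin3a sites 2 to 4 in the 4 lists (rows), as bars over the distance in kb from the Sin3a summit of site 2 in the Sin3a line, with summits as ticks and fold enrichment as numbers. The Sin3a summits line up between lines, and the strongest FLAG summits (13.0 and 9.82) lie beside the Sin3a summits of site 3.

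Site 6 (56978189-56979438), 33.5 kb beyond site 5, was the strongest Sin3a site of the 4 windows. The Sin3a fold was 11.9 in the Sin3a line and 11.7 in the double line, ranks 372 of 17168 and 315 of 18231 by −log10 q. The summits carried 109 (89.5 to 131) and 91 (73.3 to 112) fragments. FLAG was weaker within its own lists, with folds of 5.60 in the Nanog line versus 6.99 in the double line, in the top 32.2% and 21.3%. Here too the antibodies peaked apart, the FLAG summits 462 bp from Sin3a across the single-transgene lines and 422 bp in the double line, while summits of 1 antibody differed by 80 bp for Sin3a and 40 bp for FLAG. Sites 3 and 6 were 2 of the 9 with summits of 1 antibody within 100 bp and of different antibodies at least 400 bp apart. Over the series 2.77% of the sites of every list had this arrangement, and 5.88% of those at least 1000 bp wide. The limits were chosen after the values were seen, and 4 of the 9 sites were that wide.

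At site 7 (56995717-56996348), 16.3 kb further on, the order of the lines differed by antibody. The Sin3a fold was 5.51 in the Sin3a line and 7.06 in the double line, and the FLAG fold 8.72 in the Nanog line versus 6.14 in the double line. The fragment numbers were 49 (36.3 to 64.8), 54 (40.6 to 70.5), 56 (42.3 to 72.7) and 47 (34.5 to 62.5) in that order. The peaks ranked in the top 39.3% and 18.3% of the Sin3a lists and 13.6% and 30.3% of the FLAG lists. The other sites of the window held 1 weak FLAG peak each, site 1 (56904021-56904322) in the Nanog line with a fold of 3.04 and site 5 (56944555-56944738) in the double line with a fold of 2.87.

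Cells that carry a Sin3a transgene hold extra copies of its sequence, and reads from these copies would align to the exons of the endogenous gene. The transgene was present in the Sin3a and double lines and not in the Nanog line. Of the 7 merged sites of the Sin3a window, 0 were found in the 3 lists of the lines with the transgene and missing from the FLAG list of the Nanog line, a class of 194 sites (0.424%) in the whole series. With so rare a class, a count of 0 among 7 sites says nothing about transgene reads. A merged site counts as found in a list whichever of its peaks that list holds. The count therefore does not cover single peaks within a site. All 5 sites of the window with Sin3a peaks also had a FLAG peak in the Nanog line, and 1 site, the weak site 5, was seen in a line with the transgene alone. Within site 3, the double line's FLAG peak at 56922987-56923231, of fold 3.60, overlapped the Sin3a peaks of the Sin3a and double lines. No FLAG peak of the Nanog line overlapped it. The expected background was 10.0 and 9.0 control tags at these Sin3a summits and 7.0 at this FLAG summit. In the double line's FLAG list, 51.3% of peaks had a background above the lowest value of 4.76. Whether transgene reads gave this FLAG peak was not tested. Because exons were not placed on mm9, the part of transgene reads in the height of any single peak was not tested. Both Sin3a lists come from lines with the transgene. For Sin3a peaks, transgene reads and occupancy of the endogenous gene therefore cannot be told apart by comparing lines.

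The Sin3b window held 1 site, at chromosome 8, 75247070-75247493, and Sin3a was the stronger there within its lists. Sin3b is the paralogue that can stand in the complex in place of Sin3a. The Sin3a fold was 5.73 in the Sin3a line and 6.93 in the double line, in the top 36.6% and 19.6% of these lists. The FLAG fold reached 2.73 in the Nanog line versus 3.60 in the double line, in the top 97.8% and 82.9%, so that both FLAG peaks were among the weak ones of their lists. The summits carried 51 (38.0 to 67.1) and 53 (39.7 to 69.3) Sin3a fragments and 24 (15.4 to 35.7) and 28 (18.6 to 40.5) FLAG fragments. Its 424 bp made it narrow, since 94.4% of the sites of every list were at least as wide.

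The Hdac1 window held 8 sites on chromosome 4, of which 3 had both antibodies, 3 FLAG alone and 2 Sin3a alone. Sites 2 and 3 lay 539 bp apart and held the strongest Sin3a peaks of the window. At site 2 (129190637-129191063) the Sin3a fold was 6.60 in the Sin3a line and 5.65 in the double line, and the FLAG fold 3.93 in the Nanog line versus 4.55 in the double line. The summit carried 59 (44.9 to 76.1), 43 (31.1 to 57.9), 26 (17.0 to 38.1) and 36 (25.2 to 49.8) fragments in that order. These peaks ranked in the top 25.5% and 33.2% of the Sin3a lists and 73.4% and 54.4% of the FLAG lists. The FLAG summits lay 3 bp apart. Site 3 (129191603-129191964) had Sin3a folds of 4.31 and 5.52 and a FLAG fold of 4.30 in the Nanog line, with no FLAG peak in the double line.

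At Hdac1 site 5 (129219932-129220421), the FLAG folds were 5.36 in the Nanog line versus 4.23 in the double line, and the Sin3a folds 3.65 and 3.61. Both Sin3a peaks were in the weaker part of their lists, in the top 78.8% and 82.0%, whereas FLAG was in the top 42.7% and 64.8%. The summits carried 32 (21.9 to 45.2) and 27 (17.8 to 39.3) Sin3a fragments and 34 (23.5 to 47.5) and 32 (21.9 to 45.2) FLAG fragments. The strongest FLAG peak of the window in the double line was at site 6 (129231871-129232271), with a fold of 6.01 there and 4.75 in the Nanog line, in the top 32.0% and 51.1%, and no Sin3a peak. Its summits carried 46 (33.7 to 61.4) and 30 (20.2 to 42.8) fragments in these lines. Site 1 (129180730-129180943) likewise had FLAG in both lines and no Sin3a, with folds of 5.23 in the Nanog line versus 3.97 in the double line. By −log10 q it was the strongest FLAG site of the window in the Nanog line. It ranked in the top 42.4% and 68.5% of these lists, with 35 (24.4 to 48.7) and 32 (21.9 to 45.2) fragments. Single peaks remained at site 4 (Sin3a, Sin3a line, fold 2.64), site 7 (FLAG, Nanog line, fold 2.62) and site 8 (Sin3a, double line, fold 3.99). The Hdac1 folds ranged from 2.62 to 6.60, below the strongest sites of the Sin3a window in every list.

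The Hdac2 window held 1 site of 873 bp at chromosome 10, 36693809-36694681, with folds from 4.14 to 5.00 in the 4 lists. The Sin3a fold was 4.63 in the Sin3a line and 4.76 in the double line, and the FLAG fold 4.14 in the Nanog line versus 5.00 in the double line. Sin3a ranked in the top 54.5% and 50.7% of its lists and FLAG in the top 69.5% and 47.3%. The summits carried 41 (29.4 to 55.6), 36 (25.2 to 49.8), 26 (17.0 to 38.1) and 38 (26.9 to 52.2) fragments. Sin3a and FLAG summits were 424 bp apart across the single-transgene lines and 241 bp apart in the double line, while the Sin3a summits differed by 49 bp and the FLAG summits by 134 bp.

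**Figure D3:**
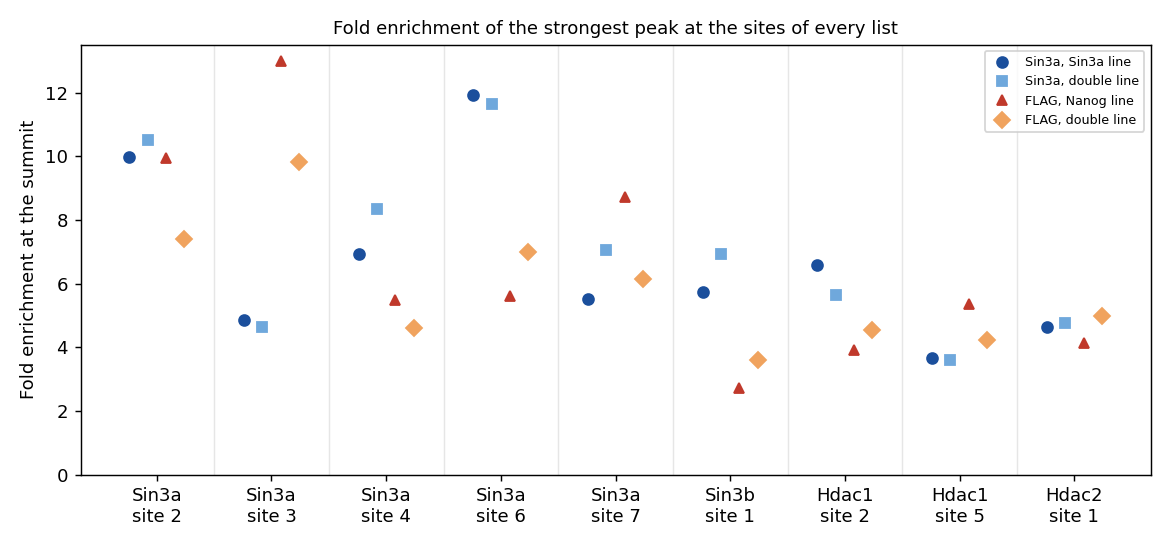
Fold enrichment of the strongest peak (vertical axis) at the 9 sites with a peak of every list, 1 symbol per list. Both Sin3a folds exceed both FLAG folds at Sin3a sites 2, 4 and 6, Sin3b site 1 and Hdac1 site 2, both FLAG folds exceed both Sin3a folds at Sin3a site 3 and Hdac1 site 5, and the Hdac2 values lie between 4.14 and 5.00.

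**Figure D4:**
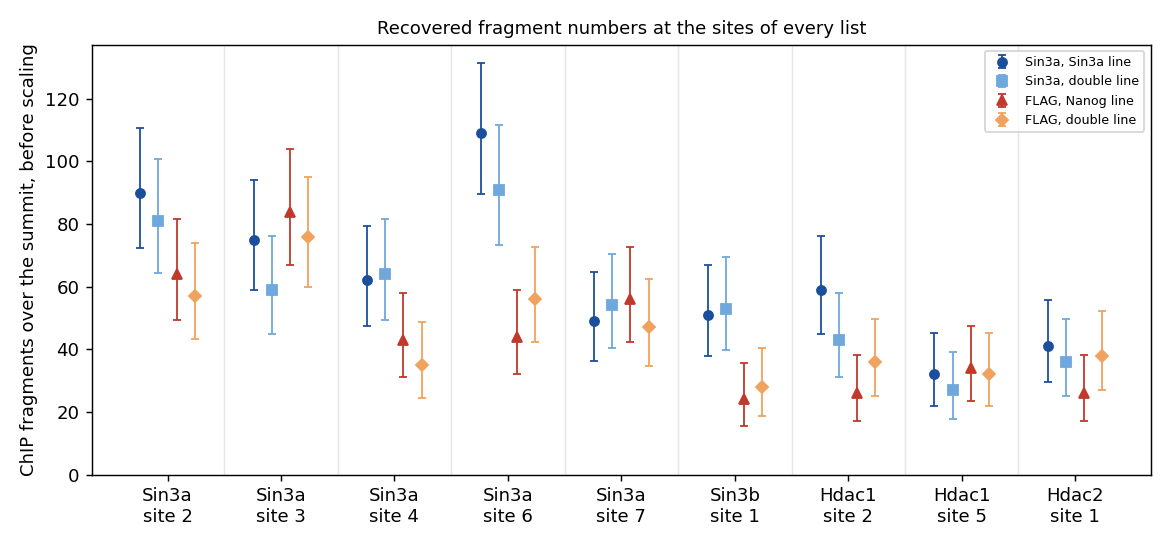
ChIP fragments over the same summits, before scaling between ChIP and control (vertical axis), with exact 95% Poisson intervals that cover counting error only. The Sin3a counts at Sin3a site 6 (109 and 91) are the highest plotted, and the Sin3a and FLAG counts at Hdac1 site 5 lie between 27 and 34. Counts are not scaled for the depth of the lists.

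Between lines, the median ratio of the Sin3a fold in the double line to that in the Sin3a line was 1.03 over the 9 sites (range 0.856 to 1.28), against 0.994 over all 11761 sites of every list. The corresponding FLAG ratio, double line over Nanog line, had a median of 0.843 (range 0.704 to 1.32), against 0.860. It was above 1 at 4 of the 9 sites, which were Sin3a site 6, Sin3b site 1, Hdac1 site 2 and Hdac2 site 1, and at 22.8% of all sites. At Sin3a sites 2, 3, 4 and 7 and Hdac1 site 5 the FLAG fold was the lower in the double line. All of the ratios at the 9 sites for Sin3a lay within the range that held the middle 90% of sites in the series (0.694 to 1.43), and for FLAG (0.618 to 1.24) those of Sin3a site 6, at 1.25, and Sin3b site 1, at 1.32, lay above it. At these 2 sites the expected FLAG background was higher in the Nanog line. It was 6.0 control tags versus 5.0 in the double line at Sin3a site 6, and 7.0 versus 4.97 at Sin3b site 1. A fold is a ratio to this background, so these FLAG ratios include its difference. Folds are relative to their own list, and a ratio is no measure of a change in occupancy.

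By −log10 q, the 9 sites ranked at a median of the top 28.3% and 19.6% of the Sin3a lists, against 36.4% and 33.2% for all sites of every list. In the FLAG lists they ranked at 32.9% in the Nanog line versus 47.3% in the double line, against 23.0% and 31.7%. In the strongest 20% of a list were 2 of 11 Sin3a peaks of the Sin3a line, 5 of 11 of the double line, 3 of 16 FLAG peaks of the Nanog line and 2 of 15 of the double line, against 20%, 21.1%, 20.1% and 20% of the lists, where ties at the limit are included.

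The window borders set which peaks were counted. The last peak inside the Sin3a window ended 3.65 kb from its border with a fold of 6.14, and the next, a Sin3a peak of the double line with a fold of 7.86, lay 5.69 kb outside. The nearest peak outside the Hdac2 window, 3.95 kb away, was a FLAG peak of the double line with a fold of 4.58, and that outside the Hdac1 window, 4.44 kb away, a FLAG peak of the Nanog line with a fold of 3.24. The nearest peak outside the Sin3b window was 49.4 kb away.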

How the data were processed

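The authors deposited 1 narrowPeak list for each of 4 ChIP groups of 2 replicates. Per the submitters' processing notes, genome build mm9, FastQC 0.10.1, Bowtie 1.0.0 and SAMtools 0.1.19 were used, with no role stated; the sources used here do not say how peaks were called, or on which replicates. The deposited values are the fold enrichment at the summit, a ratio to the expected background, the −log10 p-value and −log10 q-value of the summit, and a score of 10 times the −log10 q without decimals, which held in 100% of rows. Ranks are by −log10 q, and the top percent is the rank over the list length. The summit position is deposited as an offset. Coordinates are 1-based.

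Fragment numbers were recovered from fold and p-value, as the whole number of fragments that gives both; 98.8% to 99.9% of peaks of each list, and all 53 described here, had exactly 1. Read totals of the samples are not known here. Fragment numbers at summits depend on enrichment as well as depth. The recovered ratio of ChIP to control tags ranged from 1.15 (FLAG, Nanog line) to 1.43 (Sin3a, Sin3a line). Intervals are 95% Poisson intervals and cover counting error only. Overlap meant 1 shared base, and a site is a set of merged peaks of the 4 lists, described by its strongest peak in each list. Every peak of the windows was accounted for, and the sites with peaks of all 4 lists and the strongest site of each window and list are given with fold, rank and fragments in each list. Tiles were assigned peaks by their midpoints. The loci and comparisons were chosen with earlier results of these data known. The planned count of other genes of the complex was not run, since no mm9 annotation was used here. The names of all 4 genes matched the RefSeq gene table, and 3 the promoter table. Alternatives were −log10 q limits of 5 and 10, the same number of top peaks per list, overlap by summits within 200 bp or by 50% of the shorter peak, other window borders, ranking by fold and merging within 1 kb. The code, tested on simulated data, ran in Python 3.11.15 with SciPy 1.17.1, pandas 2.3.3, Matplotlib 3.10.9 and NumPy 2.4.6.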

Additional observations from a re-analysis of the deposited data

How the results depend on the processing

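No paired analysis was possible because the lists carry no replicates, and no replicate could be left out. The count of merged sites of the Sin3a window with peaks in all 3 lists of the lines with the Sin3a transgene and none in the Nanog line's FLAG list was 0 under every alternative run. So rare a class (0.424% of the series) is seldom met among so few sites, so this 0 says nothing about transgene reads. This count does not cover single peaks within a site, such as the weaker FLAG peak of the double line at Sin3a site 3. Of 73 counts compared, 56 stayed within 1.5 times. Keeping peaks with −log10 q of at least 10, the number in the windows fell from 11 to 7 (Sin3a, Sin3a line), from 16 to 8 (FLAG, Nanog line) and from 15 to 5 (FLAG, double line), the sites from 17 to 11 and those of every list from 9 to 4. FLAG peaks shared between lines were 4 in either direction (12 and 13 before), and Sin3a peaks at FLAG peaks were 4 in the double line (9 before) and 5 across the single-transgene lines (10 before). With the top 17168 peaks of each list, FLAG peaks numbered 8 and 5, sites of every list 4, shared FLAG peaks 4 in either direction, and Sin3a peaks at FLAG peaks 4 and 6. These settings leave fewer peaks by construction. With summits within 200 bp, 5 Sin3a peaks of the Sin3a line lay at one of the Nanog line's FLAG peaks. The overlapping peaks no longer counted were at Sin3a sites 2, 3, 4 and 6 and Hdac2 site 1, with summits 424 to 729 bp apart. The cause of these distances was not tested. Merging peaks up to 1 kb apart, chosen after the data were seen, gave 12 sites, 7 of them of every list. Ranking by fold moved 2 of 53 peaks by over 1.5 times, the Sin3a peaks of Sin3a site 3. Site counts were not run with the other overlap rules.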
